A study of Mus musculus with 10 samples.

Results

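The pausing and release factors of RNA polymerase II were followed through mouse spermatogenesis as 10 genes, Nelfa, Nelfb, Nelfcd, Nelfe, Supt5, Supt6, Cdk9, Ccnt1, Ccnt2 and Hexim1. They were chosen by name, and all 10 had a row among the 28125 genes of the scRNA-seq matrix and the 30670 genes of the scATAC-seq matrix. Nuclei of testes from wild-type mice aged 11, 17 and 25 days postpartum (dpp), and from Cre/+ and Nfya-CKO mice aged 8 weeks, were assayed jointly for RNA (scRNA-seq) and open chromatin (scATAC-seq). Each condition gave 1 library per assay. Wild-type mice were C57BL/6J. Cre/+ mice carry a Stra8-Cre allele, from which the Stra8 gene drives Cre in germ cells, and Nfya-CKO mice carry it with Nfya fl/fl, so that exons of Nfya, a subunit of the CCAAT-binding factor NF-Y, are removed in germ cells and not in somatic cells. Values were deposited for 13 cell populations, named as undifferentiated and differentiating spermatogonia (SpG), preleptotene (pL), early leptotene to zygotene (eL/L/Z), leptotene to early pachytene (L/Z/eP), mid and late pachytene (mP/lP) and diplotene (D) spermatocytes, round (RS) and elongating (ES) spermatids, Sertoli cells, other somatic cells, unknown cells and Nfya-CKO SpG.

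Soon after starting, Pol II stops just downstream of the transcription start site, held there by the negative elongation factor NELF and by DSIF, the dimer of SPT5 and SPT4. The kinase P-TEFb, made of CDK9 and cyclin T1 or T2, phosphorylates NELF, SPT5 and Pol II, after which NELF leaves and Pol II elongates with SPT5 and the histone chaperone SPT6. HEXIM1 binds the 7SK RNA and keeps P-TEFb inactive, and the testis-specific protein BRDT recruits P-TEFb to chromatin. In male germ cells many genes needed later in meiosis carry paused Pol II already in spermatogonia, and A-MYB, made in pachytene spermatocytes, acts with BRDT at their release.

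As NF-Y binds the CCAAT box, the promoters of the 10 genes were searched for it on both strands, where CCAAT on the opposite strand reads as ATTGG. The GC box was searched for as GGGCGG, which on the opposite strand reads as CCGCCC. The window ran from 250 bases before to 50 bases after a RefSeq transcript start (GRCm38.p6). RefSeq promoters were matched for 8 genes, the exceptions being Nelfcd and Nelfe. CCAAT was present in 3 of 8, or 37.5%, against 37.4% of all 32851 RefSeq promoters. A GC box was present in 7 of 8, or 87.5%, against 35.7% of all promoters, the exception being Supt6. The windows of the 8 genes were from 53% to 78.3% G or C, and promoters of like content were not set apart. For Supt6 the 250 bases before the start used lie within the gene as positioned below, and for Supt5 and Nelfa they do in part. Sequence before a start further upstream was not fully searched for these genes. The 250 bases before the start used are shown for the 3 genes with CCAAT, and for Supt5, which had none in its window. Supt5 was among the genes with the largest difference in Nfya-CKO SpG. Bases in capitals mark CCAAT or ATTGG, and each sequence runs 5′ to 3′ along the strand of the gene.
Hexim1 (chr11:103116075-103116324, + strand): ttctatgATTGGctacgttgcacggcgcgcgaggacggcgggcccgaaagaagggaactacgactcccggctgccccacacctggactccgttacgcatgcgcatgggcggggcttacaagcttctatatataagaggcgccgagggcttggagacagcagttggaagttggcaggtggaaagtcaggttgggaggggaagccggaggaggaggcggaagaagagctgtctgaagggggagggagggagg
Ccnt2 (chr1:127773914-127774163, + strand): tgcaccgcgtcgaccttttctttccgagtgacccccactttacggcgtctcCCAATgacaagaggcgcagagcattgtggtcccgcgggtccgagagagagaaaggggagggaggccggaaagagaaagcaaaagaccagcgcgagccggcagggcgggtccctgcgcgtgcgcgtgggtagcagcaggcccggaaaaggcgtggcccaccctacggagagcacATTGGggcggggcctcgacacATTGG
Cdk9 (chr2:32712785-32713034, - strand): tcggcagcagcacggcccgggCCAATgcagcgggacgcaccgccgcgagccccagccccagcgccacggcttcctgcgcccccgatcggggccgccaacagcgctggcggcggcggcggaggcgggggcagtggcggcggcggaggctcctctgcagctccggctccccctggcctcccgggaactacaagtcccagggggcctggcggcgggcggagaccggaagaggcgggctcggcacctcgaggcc
Supt5 (chr7:28338720-28338969, - strand): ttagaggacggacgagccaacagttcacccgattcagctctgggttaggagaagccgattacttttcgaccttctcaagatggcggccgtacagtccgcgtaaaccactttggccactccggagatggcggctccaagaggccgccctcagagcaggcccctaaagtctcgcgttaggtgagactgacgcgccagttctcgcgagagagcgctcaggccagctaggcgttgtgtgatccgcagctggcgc
The Ccnt2 promoter held 3 matches, starting at -199, -26 and -5 from the first transcribed base, of which the first was on the strand of the gene and the others on the opposite strand. The single match of Hexim1 started at -243 on the opposite strand, and that of Cdk9 at -229 on the strand of the gene. Such a match is a description of the sequence and not a measured NF-Y site.

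The scRNA-seq table held 45250 nuclei, and the populations drew on different libraries. Undifferentiated SpG came mainly from juvenile mice, with 646 of 1292 cells from 11 dpp and 102 from Cre/+, whereas all 491 Nfya-CKO SpG came from the Nfya-CKO library. Of 5055 mP/lP cells, 3575 came from 25 dpp, and 5639 of 7325 RS and 1190 of 1195 ES came from Cre/+. Stage, age and library therefore cannot be told apart in the comparisons between populations. Cell barcodes were also shared between scRNA-seq libraries. The Nfya-CKO and Cre/+ libraries had 3813 barcodes in common, 74.0% of the Nfya-CKO nuclei, while no pair of scATAC-seq libraries shared more than 159. Of the 1190 ES of the Cre/+ library, 709 had a barcode of the Nfya-CKO library, and 675 of these had more UMIs there, with a median of 29626 UMIs against 3192. Of the 4633 other somatic cells from the Nfya-CKO library, 3628 shared a barcode with Cre/+, and only 981 of them had more UMIs in Nfya-CKO. In contrast, each of the 175 Nfya-CKO SpG with a shared barcode had more UMIs in Nfya-CKO. The 11, 17 and 25 dpp libraries shared from 621 to 853 barcodes per pair, and 1220 of 5701 eL/L/Z cells had a shared barcode whose scATAC-seq profile was found only in another library. The deposited columns pool cells, so no value could be recomputed without these cells, and values for ES, other somatic and eL/L/Z cells carry this limit. So do those of differentiating SpG, where 454 of 925 cells had a shared barcode and 143 of the 448 from Cre/+ with a Nfya-CKO barcode had more UMIs in Nfya-CKO.

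**Figure D1:**
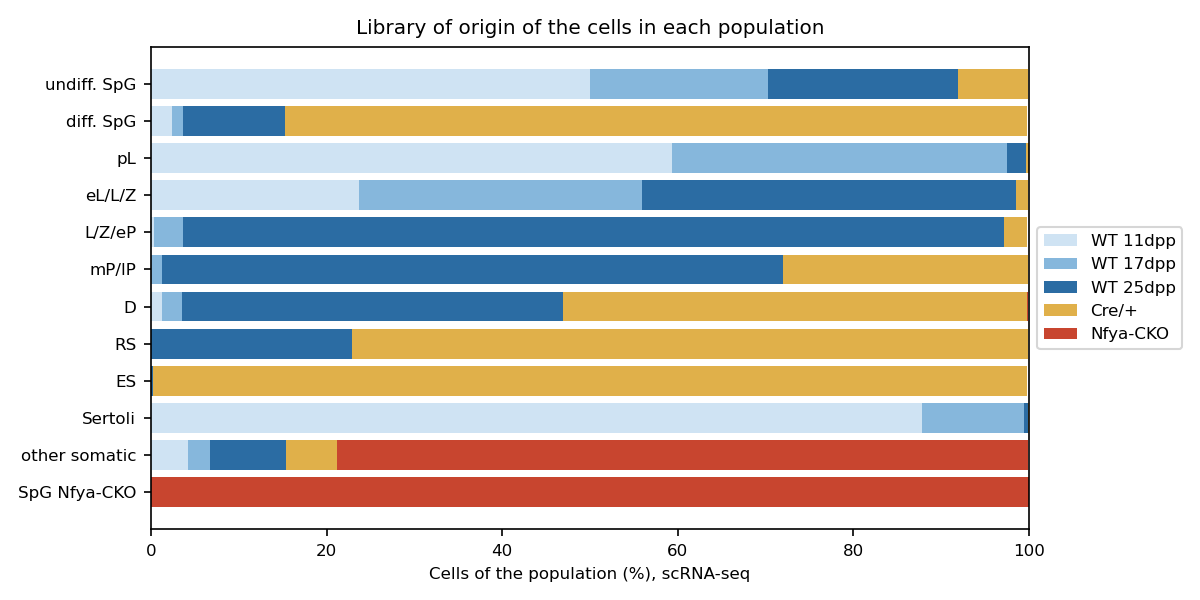
Bars give the percent of scRNA-seq cells of each population (y axis) that came from each library (x axis, %, colours as in the legend). Nfya-CKO SpG come entirely from the Nfya-CKO library, and ES almost entirely from Cre/+ (1190 of 1195 cells), so that a population and its library often coincide.

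Among control germ cells, 15 of 20 germ cell markers were highest in the population they were listed for. Zbtb16, a marker of undifferentiated SpG, was at 8.74 UMIs per 10000 in undifferentiated SpG and 4.15 in Nfya-CKO SpG, and at most 1.32 elsewhere. Stra8 was highest in pL (4.86), Piwil1 in mP/lP (11.4), Acrv1 in RS (7.19) and Prm1 in ES (40.8). The other 5 were highest elsewhere, namely Kit in pL (2.09), Sohlh1 in undifferentiated SpG (1.75), Rec8, listed for pL, in RS (1.11, against 0.298 in pL), Sycp3 in mP/lP (3.82) and Ccna1 in D (0.436). Differentiating SpG also held 3.94 of Prm1, a spermatid marker. Nfya itself was at 1.11 UMIs per 10000 in Nfya-CKO SpG against 0.456 in undifferentiated SpG, so that the RNA value of the whole gene was higher, not lower, in that library, which is called Nfya-CKO here by its label. These values do not separate the exons removed by Cre from the rest of the gene.

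RNA levels are given as the mean over cells of UMIs per 10000 UMIs of the cell. With 1 library per condition there is no replicate error and no test. A 95% counting interval was instead attached to each value, from the approximate number of UMIs behind it, which was between 80 and 7957 outside the 99 unknown cells, and it covers counting error only. Levels are compared between populations within a gene and never between genes. Across the 9 control germ cell populations, the highest level of a factor was at the median 2.86 times its lowest, against 4.49 times for the median of 10386 genes with a mean of at least 0.2. Lower genes have a wider spread from counting alone, so that the wider range of all genes is a description. RS held the lowest level of 6 of the 10 factors among 12 populations without the unknown cells, and 25.7% of 15250 genes with a mean of at least 0.05 were also lowest there. Nfya-CKO SpG held the highest level of 4 factors among 13 populations, as did 11.6% of those genes.

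**Figure D2:**
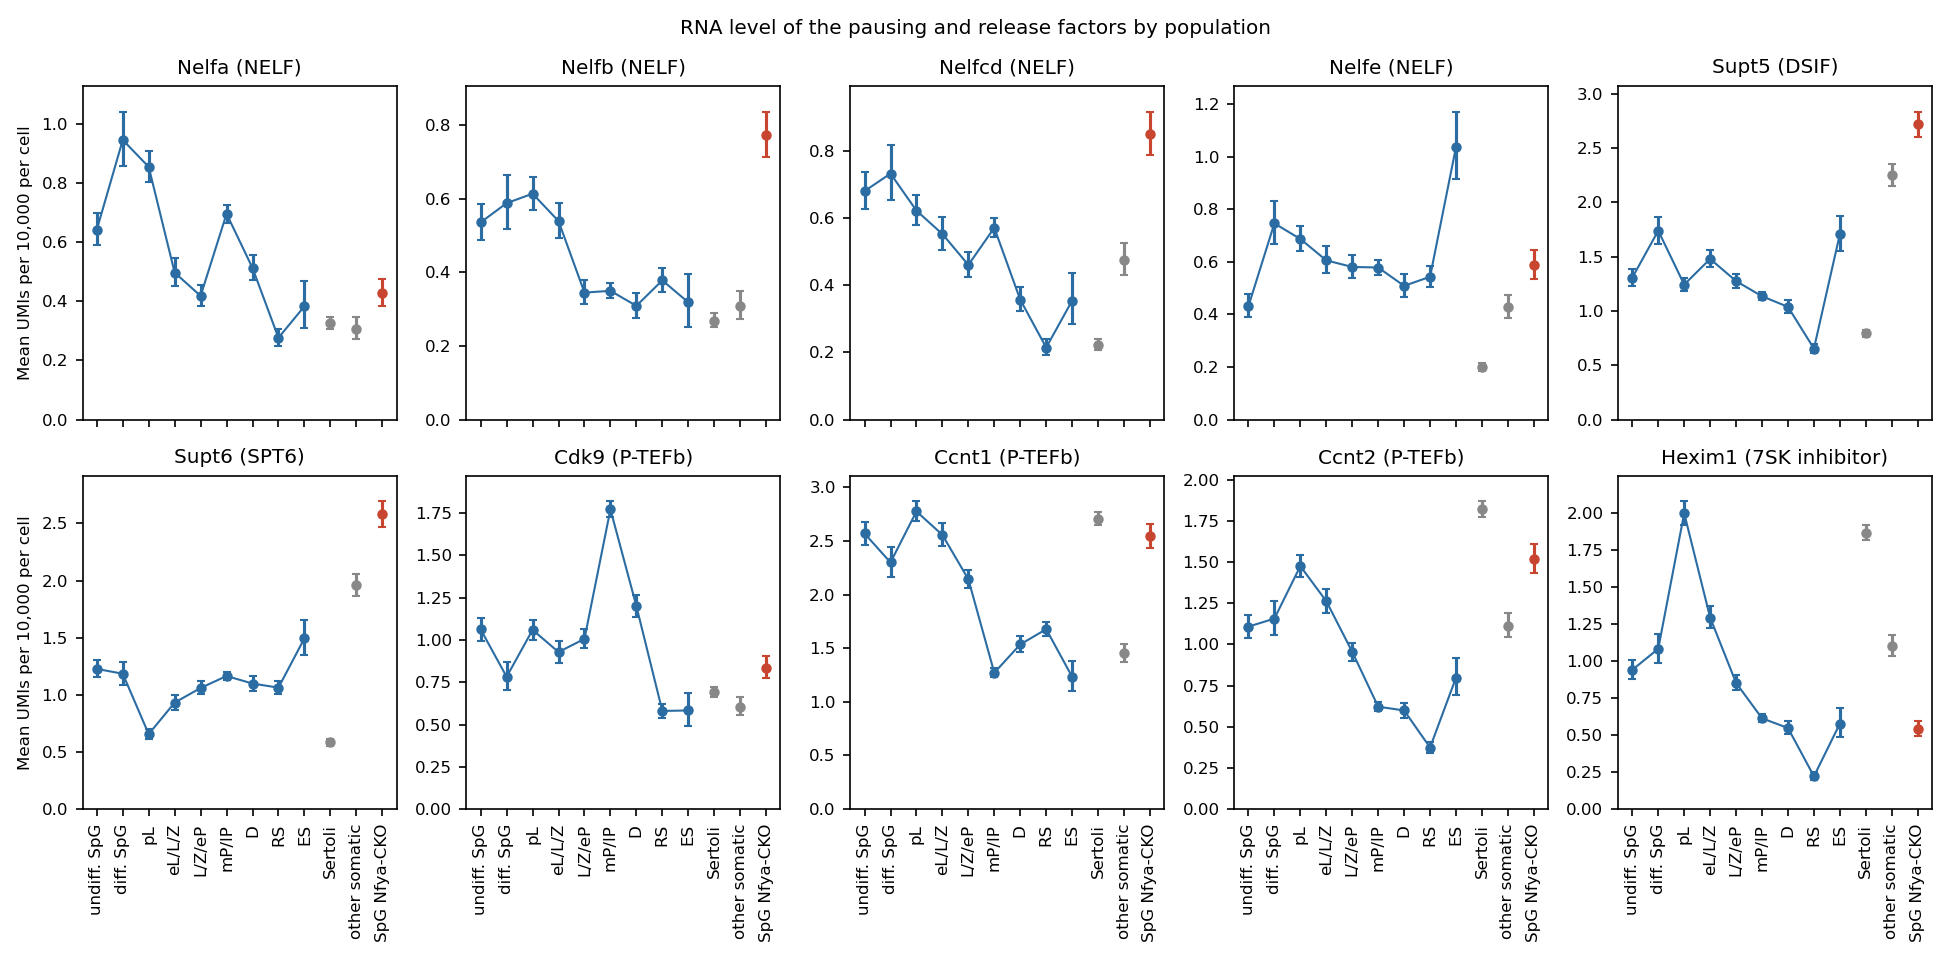
Points give the RNA level of each factor (y axis, mean UMIs per 10000 per cell, from 0) by population (x axis), with bars for the approximate 95% counting interval; control germ cells are blue and joined in order of development, somatic cells grey and Nfya-CKO SpG red. Hexim1 peaks in pL at 2.0, Cdk9 in mP/lP at 1.77, and Supt5 and Supt6 stand highest in Nfya-CKO SpG at 2.72 and 2.58.

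The 4 NELF subunits did not share a single profile. Nelfa, which binds Pol II, was at 0.641 UMIs per 10000 in undifferentiated SpG, 0.945 in differentiating SpG, 0.853 in pL, 0.496 in eL/L/Z, 0.418 in L/Z/eP, 0.695 in mP/lP, 0.512 in D, 0.276 in RS and 0.383 in ES. It thus had its maximum in differentiating SpG, a second peak in mP/lP, and its minimum in RS. Nelfb, which links the other subunits, was at 0.536, 0.588, 0.614, 0.539, 0.345, 0.350, 0.309, 0.378 and 0.318 in the same order. Its levels fell into 2 groups, since the counting intervals of the first 4 stages overlapped one another and lay above those of the last 5. Within the last 5, the interval of RS (0.347 to 0.412) lay just above that of D (0.277 to 0.344). Nelfcd, the subunit present as NELF-C or NELF-D, was at 0.680, 0.732, 0.622, 0.552, 0.460, 0.571, 0.357, 0.214 and 0.354, and was lowest in RS. Nelfe, the RNA-binding subunit, was at 0.431, 0.747, 0.688, 0.606, 0.581, 0.579, 0.509, 0.544 and 1.04, and thus had its maximum in ES and its minimum in undifferentiated SpG. In Sertoli cells Nelfa, Nelfb, Nelfcd and Nelfe were at 0.325, 0.269, 0.223 and 0.20. In other somatic cells they were at 0.307, 0.310, 0.476 and 0.429, in unknown cells at 0.288, 0.510, 0.457 and 0.461, and in Nfya-CKO SpG at 0.427, 0.773, 0.849 and 0.588. Nelfb and Nelfcd were therefore higher in Nfya-CKO SpG than in any other population, whereas Nelfa was below its level in both kinds of control SpG. Between SpG Nfya-CKO and pL, its next population in order, the counting intervals of Nelfb did not overlap (0.712 to 0.837 and 0.570 to 0.659), while those of Nelfcd did with differentiating SpG (0.786 to 0.916 and 0.654 to 0.817).

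Supt5, which encodes the SPT5 subunit of DSIF and acts both at the pause and in elongation, was at 1.31 UMIs per 10000 in undifferentiated SpG, 1.74 in differentiating SpG, 1.24 in pL, 1.48 in eL/L/Z, 1.27 in L/Z/eP, 1.13 in mP/lP, 1.04 in D, 0.653 in RS and 1.71 in ES. It was at 0.793 in Sertoli cells, 2.25 in other somatic cells, 1.02 in unknown cells and 2.72 in Nfya-CKO SpG. RS thus held its minimum, and ES were back at the level of differentiating SpG, with overlapping counting intervals. Supt6, encoding the elongation factor SPT6, was at 1.23, 1.18, 0.656, 0.932, 1.06, 1.16, 1.10, 1.06 and 1.49 in the 9 control germ cell populations in the same order, and at 0.584, 1.96, 0.803 and 2.58 in the other 4. Unlike the other factors, it had its germ cell minimum in pL. Both genes were highest in Nfya-CKO SpG and next highest in other somatic cells. All Nfya-CKO SpG and 4633 of 5883 other somatic cells were assigned to the Nfya-CKO library, but 3628 of the latter shared a Cre/+ barcode, so that their library is in doubt.

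The subunits of P-TEFb diverged in meiosis. Cdk9, the kinase, was at 1.06 UMIs per 10000 in undifferentiated SpG, 0.782 in differentiating SpG, 1.06 in pL, 0.929 in eL/L/Z, 1.01 in L/Z/eP, 1.77 in mP/lP, 1.20 in D, 0.581 in RS and 0.583 in ES. Its maximum in mP/lP (counting interval 1.73 to 1.82) stood apart from the next value, in D (1.14 to 1.27). Ccnt1, the cyclin T1 gene, was at 2.57, 2.30, 2.77, 2.56, 2.14, 1.27, 1.53, 1.68 and 1.23, and Ccnt2, the cyclin T2 gene, at 1.11, 1.16, 1.47, 1.26, 0.955, 0.622, 0.599, 0.374 and 0.798. Both cyclin genes were thus highest in pL and lower in mP/lP, where Cdk9 was highest. From L/Z/eP to mP/lP the log2 ratio was 0.76 for Cdk9, -0.71 for Ccnt1 and -0.55 for Ccnt2. In Sertoli cells, other somatic cells, unknown cells and Nfya-CKO SpG, Cdk9 was at 0.693, 0.606, 0.682 and 0.837, Ccnt1 at 2.71, 1.45, 1.40 and 2.55, and Ccnt2 at 1.82, 1.11, 0.471 and 1.52. Ccnt2 was highest of all in Sertoli cells, with counting intervals of 1.77 to 1.87 there and 1.44 to 1.61 in Nfya-CKO SpG, the next population.

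Hexim1, the inhibitor of P-TEFb, had the widest range of the 10 genes over the control germ cell populations. It was at 0.939 UMIs per 10000 in undifferentiated SpG, 1.08 in differentiating SpG, 2.0 in pL, 1.29 in eL/L/Z, 0.851 in L/Z/eP, 0.612 in mP/lP, 0.547 in D, 0.221 in RS and 0.576 in ES. The pL value, from an approximate 2433 UMIs, was 9.01 times the RS value, from an approximate 313 UMIs. Levels were thus lower at each step from pL to RS, although the counting intervals of mP/lP and D overlapped. Sertoli cells were at 1.86, other somatic cells at 1.10, unknown cells at 1.57 and Nfya-CKO SpG at 0.541. Hexim1 and Ccnt2 followed each other across development, with Pearson r = 0.97 over the 9 control germ cell populations on the log2(value + 0.1) scale, and 0.83 over the 12 populations without the unknown cells. These populations share libraries and the correlation is given as a description.

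To ask how the factors differed in the population labelled Nfya-CKO, these SpG were compared with undifferentiated SpG. Among control germ cells, Zbtb16, Gfra1, Uchl1 and Sall4 were highest in that control population. Germ cell markers also differed in Nfya-CKO SpG. Sall4 was at 2.08 against 4.88 UMIs per 10000, Stra8 at 0.969 against 2.05, Kit at 1.08 against 0.548 and Uchl1 at 11.0 against 5.88. Gfra1 was nearer, at 1.20 against 1.08. Supt5 and Supt6 were higher, at 2.72 against 1.31 UMIs per 10000 (2.08-fold) and 2.58 against 1.23 (2.10-fold). Hexim1 was lower, at 0.541 against 0.939 (0.576-fold), as were Nelfa (0.666-fold) and Cdk9 (0.788-fold). Nelfb (1.44-fold), Ccnt2 (1.37-fold), Nelfe (1.36-fold) and Nelfcd (a log2 ratio of 0.28) lay between these. Ccnt1 was at 2.55 against 2.57, with overlapping counting intervals. The intervals of the other factors did not overlap. They cover counting error only, and the share of all genes without overlap was not computed, so this is a description. The size limit was a 2-fold ratio of value + 0.1, which understates the change of low genes. By it, 2 of 10 factors (Supt5 and Supt6) were higher, against 4.09% of 15250 genes, and 0 of 10 lower, against 3.08%. Supt5 and Supt6, with log2 ratios of 1.0 and 1.01, were at percentiles 95.9 and 96.0 of all genes and lay just inside the limit, and Supt5 lay outside it once the median of all genes (0.0084) was subtracted. The median log2 ratio of the factors was 0.33. Somatic markers moved with this comparison. Of 12 marker genes 11 were higher in Nfya-CKO SpG, with a sum of 73.0 against 4.13 UMIs per 10000, led by the Leydig cell gene Insl3 (39.8 against 0.0640) and by Clu (22.8 against 2.50), while the Sertoli cell gene Amh was at 0.0116 against 0.0431. Nfya-CKO SpG were also deeper, with a median of 18361 UMIs per cell against 9290. The parts of somatic RNA, depth and library in these differences were not tested, and genotype, age and library cannot be told apart.

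Against other control populations the picture differed in part. With differentiating SpG as control, which came mostly from the 8-week-old Cre/+ library (783 of 927 cells), the log2 ratio was 1.06 for Supt6 and 0.62 for Supt5, so that 1 factor passed, against 17.4% of all genes in either direction. With pL as control, Supt5 and Supt6 were higher by 1.07 and 1.82 and Hexim1 lower by -1.71, so that 3 passed, against 13.8%. Nelfe, higher against undifferentiated SpG, was lower against differentiating SpG (-0.30) and pL (-0.20), and Cdk9 turned to 0.087 against differentiating SpG. Supt6 was past the limit against each of the 3 control populations, of which differentiating SpG carry the limit of shared barcodes given above.

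From undifferentiated SpG to mP/lP, when poised meiotic genes come to be expressed, no factor passed the 2-fold limit of value + 0.1 in either direction, while 13.9% of all genes were higher and 20.8% lower. Cdk9 was the most increased, at 1.77 against 1.06 UMIs per 10000 (1.67-fold), followed by Nelfe at 0.579 against 0.431 (1.34-fold). Ccnt1 was the most decreased, at 1.27 against 2.57, a log2 ratio of -0.96 just short of the limit (0.495-fold without the added 0.1, which lies past it), and Ccnt2 (0.561-fold), Hexim1 (0.652-fold) and Nelfb (0.653-fold) were lower as well. Nelfcd and Supt5 were at log2 ratios of -0.22 and -0.19. Nelfa and Supt6 had overlapping counting intervals. The median log2 ratio was -0.20 for the factors and -0.14 for all genes.

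From mP/lP to RS, 4 factors were at least 2-fold lower and 0 higher, against 9.36% and 17.6% of all genes. Cdk9 was at 0.581 against 1.77 UMIs per 10000 (log2 ratio -1.46, percentile 1.93 of all genes), Hexim1 at 0.221 against 0.612 (-1.15), Nelfcd at 0.214 against 0.571 (-1.09) and Nelfa at 0.276 against 0.695 (-1.08). The RNA of the kinase and of its inhibitor was thus lower in RS, as was that of the NELF subunits Nelfa and Nelfcd. Protein levels of these factors were not measured. Supt5 (-0.71) and Ccnt2 (-0.61) were lower without reaching the limit. Nelfb, Nelfe and Supt6 were near their mP/lP level (0.09, -0.08 and -0.12), and Ccnt1 was higher, at 1.68 against 1.27 (0.37). The median log2 ratio of the factors was -0.66, against -0.08 for all genes. RS had a median of 2132 UMIs per cell and mP/lP of 6969, and the part of depth or library was not tested.

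From RS to ES, 8 of 10 factors had a higher value, as did 58.6% of all genes, and 2, Supt5 and Hexim1, passed the limit, against 10.1% of all genes, Hexim1 no longer once the median of all genes was subtracted (0.95), while 0 passed it downward, against 10%. Supt5 was at 1.71 against 0.653 UMIs per 10000 (log2 ratio 1.26), Hexim1 at 0.576 against 0.221 (1.07), Ccnt2 at 0.798 against 0.374 (0.92, although 2.13-fold without the added 0.1) and Nelfe at 1.04 against 0.544 (0.82). Cdk9 was at 0.583 against 0.581, and Ccnt1 was lower, at 1.23 against 1.68. Nelfcd (0.53), Supt6 (0.45) and Nelfa (0.36) were higher without reaching the limit, and Nelfb was at -0.19 with overlapping counting intervals. The median log2 ratio was 0.49 for the factors and 0.13 for all genes. Somatic markers moved with this comparison, being at 41.5 against 4.78 in sum, including Clu at 31.3 against 2.90 and Insl3 at 3.81 against 0.527. As 709 of 1190 ES from Cre/+ had a barcode of the Nfya-CKO library, the ES values include those cells, and their part was not tested. Of the 8 factors with a higher value in ES than in RS, 6 were higher still in other somatic cells, among them Supt5, Hexim1 and Ccnt2 (2.25, 1.10 and 1.11). The other 2 were lower there than in ES, Nelfe at 0.429 against 1.04 and Nelfa at 0.307 against 0.383. Cdk9 is counted among the 6, although its counting intervals in ES and RS overlapped. Between ES and other somatic cells the counting intervals of Cdk9, Nelfcd and Nelfa overlapped, so that their order there is not settled. The share of all genes with this order was not computed, so these counts are a description.

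**Figure D3:**
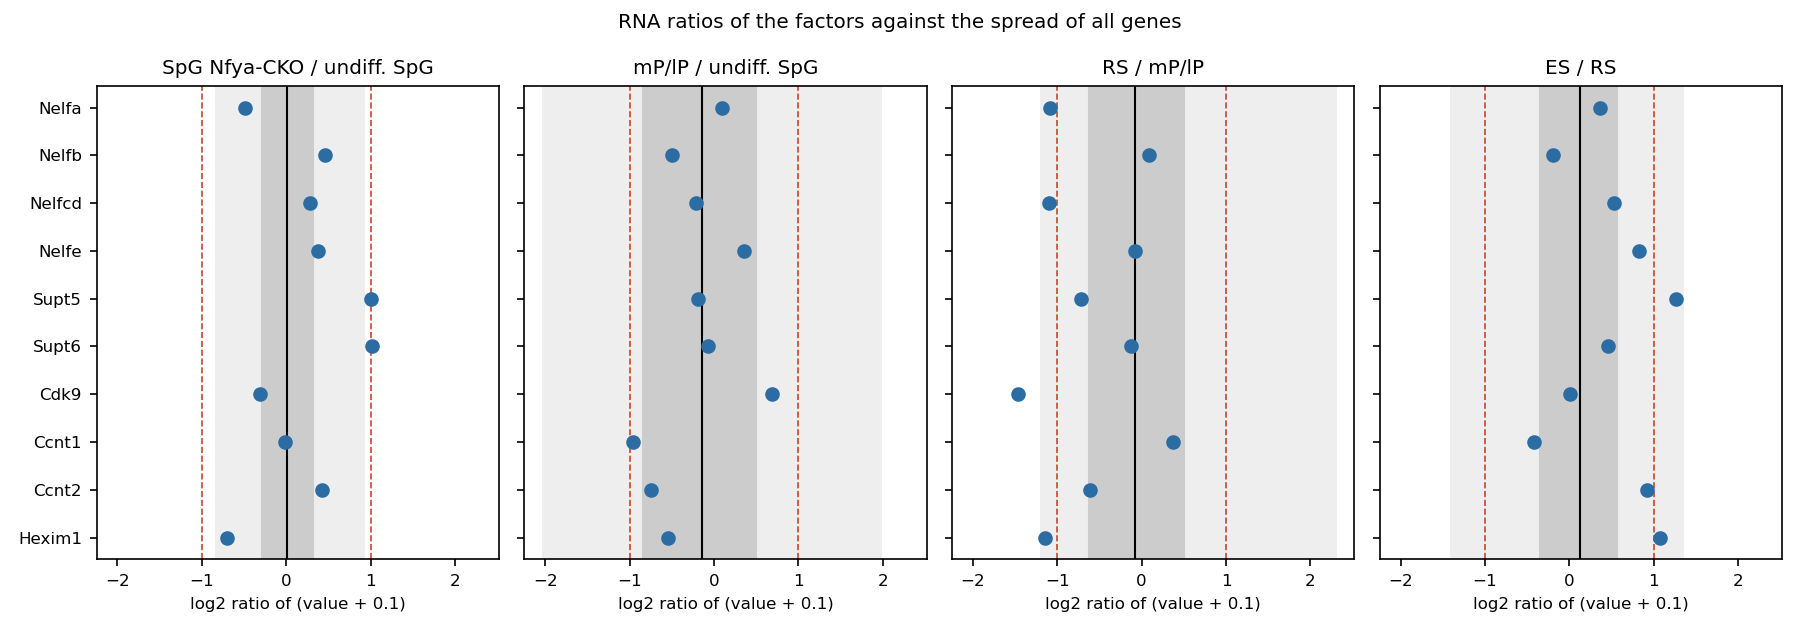
Points give the log2 ratio of RNA level (x axis, value + 0.1) of each factor (y axis) in 4 comparisons; the black line is the median of 15250 genes, dark and light grey span their middle 50% and 90%, and dashed lines mark 2-fold. Supt5 and Supt6 sit at the limit in Nfya-CKO SpG, no factor reaches it in mP/lP, Cdk9, Hexim1, Nelfcd and Nelfa lie below it in RS, and Supt5 and Hexim1 above it in ES.

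The other genes of pausing and release were taken from a list of 45 genes, of which 44 were measured (Rn7sk, the 7SK RNA, had no row). Between Nfya-CKO and undifferentiated SpG, 1 was at least 2-fold higher, Ints1 of the Integrator complex (1.01 against 0.357 UMIs per 10000), and 0 were lower, against 4.09% and 3.08% of all genes, with a median log2 ratio of -0.10. From undifferentiated SpG to mP/lP, 5 were higher and 6 lower, 11.4% and 13.6% of the list against 13.9% and 20.8% of all genes. Tcea2, a germ cell form of the elongation factor TFIIS, was at 2.40 against 0.146, Brdt at 5.07 against 0.967, Mybl1, which encodes A-MYB, at 1.51 against 0.248 and Larp7, which binds 7SK, at 5.17 against 1.74. Aff1, Mllt3 and Ell3 of the super elongation complex, which carries P-TEFb, were at 0.158 against 0.932, 0.154 against 0.873 and 0.0367 against 0.243. The counts of the list were thus no larger a share than those of all genes, and the named genes are given as a description. Mybl1 is also one of the pachytene markers listed for these data, so that its level is no independent check.

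From mP/lP to RS, 3 of the 44 were higher and 5 lower, 6.82% and 11.4% against 17.6% and 9.36% of all genes. Those higher belonged to the super elongation complex, with Ell2 at 1.21 against 0.202 UMIs per 10000, Ell3 at 0.395 against 0.0367 and Mllt3 at 0.696 against 0.154. Those lower were Supt16 of the FACT complex (1.53 against 3.95), Ccnh of the kinase module of TFIIH (0.323 against 0.910), Mybl1 (0.583 against 1.51), Tcea2 (1.05 against 2.40) and Brdt (2.32 against 5.07). From RS to ES, 0 were higher and 3 lower (6.82%), against 10.1% and 10% of all genes, again Ell2 (0.427), Ell3 (0.112) and Mllt3 (0.280). The median log2 ratios of the list were -0.34, -0.40 and 0.12 in these 3 comparisons. Supt4a, which encodes the SPT4 partner of SPT5, was highest in undifferentiated SpG (0.761) among control germ cells and lowest in RS (0.188), and was at 0.841 in Nfya-CKO SpG.

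scATAC-seq accessibility was deposited per gene and population, and was scaled to a sum of 1000000 per population, the unit used below. A ratio of 0.8 or less, or of its inverse or more, was taken as the size limit. For promoters, the methods take a window around the start site on coverage tracks scaled to mapped fragments, but the deposited values instead add up to 10000 per population, and the region behind them is not given in the sources used here. The depth per gene is unknown. Mitochondrial genes took 31.2% of the signal in pL and up to 64.5% in other somatic cells, so that values were also scaled to nuclear genes alone. On the scale with mitochondrial genes, 3 factors were lower past the limit in Nfya-CKO SpG than in undifferentiated SpG, against 27.7% of 17005 genes, and 0 were higher, against 12.6%. These were Hexim1 (47.2 against 64.3, ratio 0.734), Supt5 (38.2 against 51.8, 0.736) and Nelfe (34.8 against 43.8, 0.795). Their share is close to that of all genes. As a description, Supt5, with the higher RNA level in Nfya-CKO SpG, had a lower accessibility value there, and Hexim1 was lower in both. On this scale the median ratio of all genes was 0.907, with Supt5 and Hexim1 at percentiles 15.6 and 15.3. The other ratios were 0.842 for Supt6, 0.849 for Ccnt2, 0.856 for Nelfcd, 0.897 for Nelfb, 0.940 for Ccnt1, 0.949 for Nelfa and 1.04 for Cdk9. These ratios hold for undifferentiated SpG as control. With differentiating SpG or pL in their place 9 factors were lower past the limit, against 76.2% and 72.7% of all genes in either direction, and Cdk9 turned to log2 ratios of -0.60 and -0.57. On the nuclear scale 0 factors passed, against 34.0% of all genes in either direction, with 0.808 for Hexim1, 0.810 for Supt5 and 0.874 for Nelfe. Of the 3 genes with CCAAT in the window searched, the nuclear-scale ratio was 0.808 for Hexim1, 0.934 for Ccnt2 and 1.15 for Cdk9. It was from 0.810 to 1.04 for the 5 genes searched without a match. Nfya-CKO SpG had a mean TSS enrichment of 7.99 against 12.7, and the part of this difference was not tested.

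In mP/lP, 6 factors were less accessible past the limit than in undifferentiated SpG and 0 more, against 71.9% and 3.21% of 16389 genes. Nelfb was at 18.4 against 33.3, Supt6 at 38.0 against 60.9, Ccnt1 at 8.59 against 11.9, Ccnt2 at 41.7 against 55.0, Nelfcd at 16.9 against 22.0 and Nelfe at 33.9 against 43.8. The ratios of Nelfa (0.884), Cdk9 (0.822), Hexim1 (0.805) and Supt5 (0.802) did not reach the limit. Direction depended on the scale, since mitochondrial genes took 60.3% of the signal in mP/lP and 40.6% in undifferentiated SpG, and the median log2 ratio of nuclear genes was -0.66 on the scale with them and -0.08 without. On the nuclear scale 8 of 10 factors had a higher value in mP/lP, against 45.2% of all 16389 genes, the largest being Nelfa at 1.32, and Nelfb (0.827) and Supt6 (0.934) were lower. Nelfb therefore had a lower value on both scales, although not past the limit on the nuclear scale, and its RNA was lower as well (0.653-fold). It was at percentile 41.3 of all genes in accessibility, on the scale with mitochondrial genes, and 35.8 in RNA, so this is a description.

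**Figure D4:**
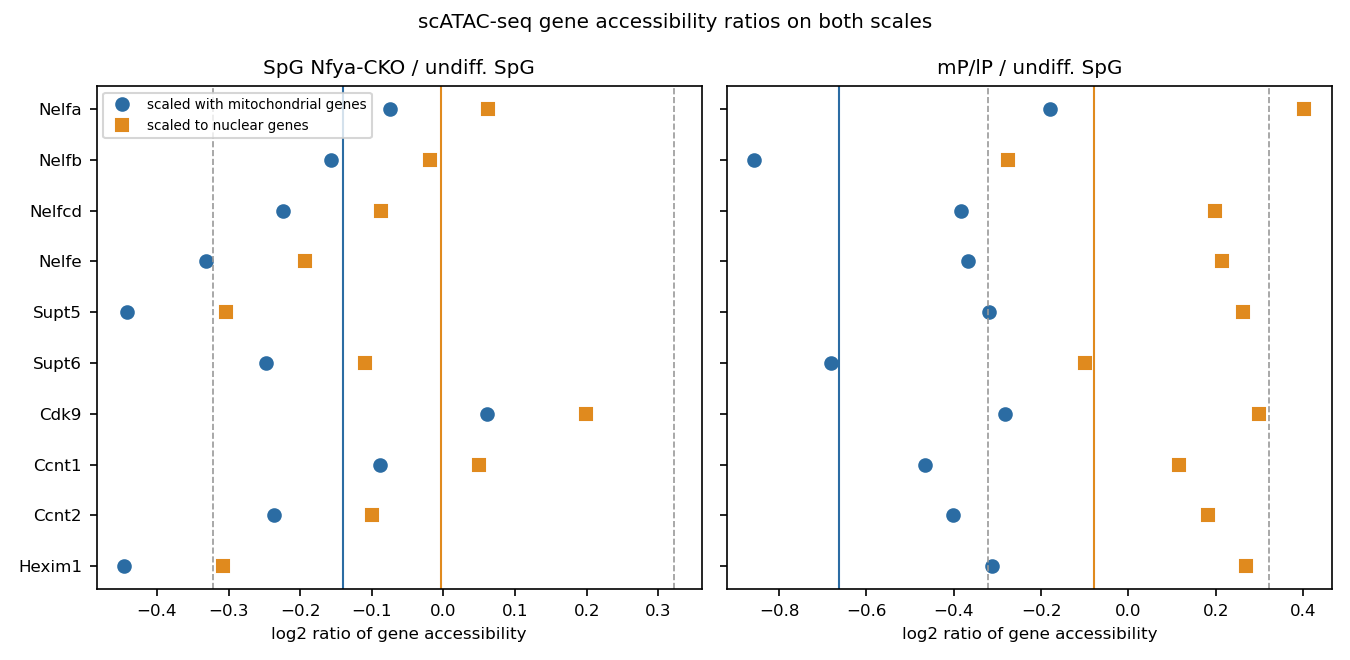
Log2 ratios of scATAC-seq gene accessibility (x axis) for each factor (y axis) in Nfya-CKO SpG (left) and mP/lP (right) over undifferentiated SpG; circles are scaled with mitochondrial genes, squares to nuclear genes, solid lines are the medians of all nuclear genes on each scale and dashed lines mark a ratio of 0.8 and its inverse. Hexim1 and Supt5 have the lowest ratios at left on both scales, and most points at right change sign between scales.

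Over the control germ cells, nuclear-scale accessibility varied less than RNA for 8 of 10 factors, the exceptions being Nelfb and Ccnt1. For Nelfb this rests on ES (27.1, from 124 cells), without which its range of accessibility was 1.27-fold in place of 2.17-fold, against 1.99-fold in RNA, and 9 of 10 factors varied less in accessibility. Of 9752 genes with a mean RNA level of at least 0.2 and a scATAC-seq value of at least 10, 95.1% varied less in accessibility than in RNA, a share above that of the factors. Without ES the share was 96.3% of 9756 genes. Supt6 ranged from 93.7 in RS to 108 in D, a 1.15-fold range, while its RNA ranged 2.28-fold. Ccnt1 had the widest range of accessibility, 3.12-fold, from 14.2 in eL/L/Z to 44.2 in RS, although its RNA was at 1.68 in RS and 2.56 in eL/L/Z. The low end of the Ccnt1 range rests on weak signal. On the scale with mitochondrial genes Ccnt1 was at 7.74 in eL/L/Z, below the value of 10 asked for in ratios, and at 26.4 in RS. Hexim1 was most accessible in pL (150) and least in ES (83.5, from 124 cells), and pL was also where its RNA was highest. Over 12 populations the Pearson r between log2 RNA and log2 nuclear-scale accessibility was 0.75 for Nelfe, 0.68 for Hexim1, 0.44 for Nelfb and 0.38 for Nelfcd. It was -0.46 for Ccnt1, -0.36 for Cdk9, -0.20 for Supt5, -0.08 for Ccnt2, 0.06 for Supt6 and 0.16 for Nelfa. RNA and accessibility of a population come from the same nuclei in part, and these values are descriptions.

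Among the factors themselves, the median Pearson r of log2(value + 0.1) over 12 populations was 0.32 for the 45 pairs, of which 35 (77.8%) were above 0, against a median of 0.14 and 59.4% above 0 for pairs of a factor with any other gene of mean 0.2 or more. The highest values were 0.83 for Ccnt2 with Hexim1, 0.79 for Nelfb with Nelfcd, 0.76 for Supt5 with Supt6 and 0.73 for both Nelfcd with Supt5 and Ccnt1 with Ccnt2. Apart from Nelfcd with Supt5, which crosses these groups, the pairs hold subunits of NELF, elongation factors and the cyclins of P-TEFb with its inhibitor. Nelfe was at only 0.36, 0.34 and 0.37 with Nelfa, Nelfb and Nelfcd. Over the 9 control germ cell populations Nelfb was closest to Ccnt1 (0.86) and Supt5 to Ccnt2 (0.74). Over the 12 populations Cdk9 was closest to Nelfa (0.62) and had r = 0.0045 with Ccnt1 and -0.09 with Ccnt2, its cyclins. Supt6 and Hexim1 were the least alike over the 12 populations (-0.49), and Supt6 and Ccnt1 over the 9 (-0.62). Over the 9 control germ cell populations Supt5 and Supt6 reached only 0.23, so that their likeness rests on the populations of other cells and of the Nfya-CKO library.

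**Figure D5:**
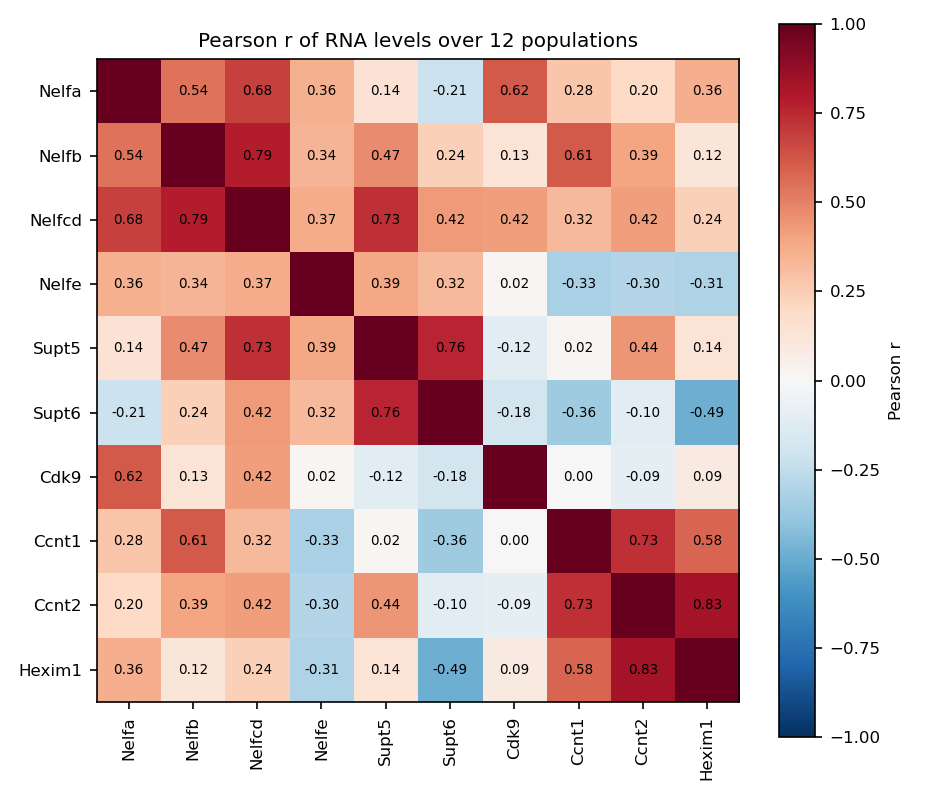
Each cell gives the Pearson r between the RNA levels, as log2(value + 0.1), of 2 factors over 12 populations, from -1 (blue) to 1 (red). The red cells for Ccnt2 with Hexim1 (0.83), Nelfb with Nelfcd (0.79) and Supt5 with Supt6 (0.76) are the strongest, and Supt6 with Hexim1 (-0.49) is the most negative.

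Of all 10386 genes with a mean of at least 0.2, the most alike over 12 populations were Rlf (r = 0.99) and Tcf12 (0.97) to Ccnt1, Prdm4 (0.98) and Wdr5 (0.96) to Nelfb, and Pes1 (0.98) and Slc4a1ap (0.97) to Nelfcd. Hexim1 was most like Stt3a (0.97) and Apmap (0.97), Ccnt2 most like Tmod3 (0.97) and Fbxo33 (0.97), Supt5 most like Puf60 (0.96) and Anapc13 (0.95), and Nelfa most like Hyou1 (0.94) and Smim13 (0.94). Supt6 was most like Rpl37 (0.93) and Ndufa7 (0.93), Nelfe most like Gm20517 (0.93) and Tpgs2 (0.89), and Cdk9 most like Cbl and pi-Cbl.1 (0.92 for each). Cbl and pi-Cbl.1 had the same r to all digits kept (0.91899), so they may not be separate profiles. With 12 points and this many genes such values are reached readily, and only 2 of these 20 genes, Rlf and Wdr5, were named again over the 9 control germ cell populations.

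Of the 10 genes, 5 had exons that overlap an exon of a gene on the opposite strand in GENCODE vM21, namely Nelfa with Nsd2 (60 bases), Nelfcd with Ctsz (10 bases), Supt5 with Gm44709 (433 bases), Supt6 with Sdf2 (242 bases) and Ccnt1 with 9330020H09Rik (695 bases). The use of strand in counting is not given in the sources used here, so that reads there could not be told apart. In Nfya-CKO SpG the log2 ratio was 0.55 for Sdf2 and 0.22 for Gm44709, against 1.01 for Supt6 and 1.0 for Supt5.

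The positions of the genes are given in GRCm38.p6. Nelfa is at chr5:33897916-33936301, Nelfb at chr2:25199712-25211489, Nelfcd at chr2:174415804-174427505 and Nelfe at chr17:34850391-34856372. Supt5 is at chr7:28314891-28338804 and Supt6 at chr11:78206749-78245972. Cdk9 is at chr2:32705782-32712784, Ccnt1 at chr15:98538690-98567736, Ccnt2 at chr1:127774164-127804837 and Hexim1 at chr11:103116325-103119725.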

How the data were processed

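Nuclei of mouse testis were profiled by BD Rhapsody. The authors aligned scRNA-seq reads with STAR 2.7.10b and scATAC-seq reads with BWA 0.7.12 to mm10, and removed poor cells and doublets with Seurat 5.2.1, DoubletFinder and ArchR 1.0.3. The deposited cell tables give the count of UMIs and fragments per cell, without normalization, and TSS enrichment, a ratio of signal at start sites over flanks. The deposited matrices hold 1 pooled value per gene and population, which the values showed to be the natural log of (1 + a mean over cells), the means of a population adding up to 10000. The file of scATAC-seq does not state the region per gene, and 13 of its genes are mitochondrial. 22 further columns of the cell tables were not used.

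Values were turned back with the exponential in scipy 1.17.1, pandas 2.3.3 and numpy 2.4.6 under Python 3.11.15. Ratios of RNA took value + 0.1, over genes averaging 0.05 or more across 13 populations, with a 2-fold limit; ratios of scATAC-seq used genes with a value of at least 10 of 1000000 in either population and a limit of 0.8 or its inverse. The equivalent number of UMIs behind an RNA value was taken from the cells' depths, rounded, and given an exact Poisson 95% interval, a step added after the values were seen. The ratio and interval steps were tested on simulated data. No p-value was computed, as each condition is 1 library and cells are not replicates. Total counts per scRNA-seq library were from 30227701 to 64967271 UMIs, and 49 cells had no library name. Of 343866 scATAC-seq cells, 31569 were paired with a named population.

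By rule, all 10 genes were named in every comparison; of the other 45, those past 2-fold, at most 8 per comparison by size; and the 2 genes most like each factor. One gene of the list of 45 is counted but not reported here. The members and lists were chosen with earlier results of these data known. Alternatives were other pseudocounts, filters, limits, scalings and control populations.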

Additional observations from a re-analysis of the deposited data

How the results depend on the processing

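The count of factors past 2-fold in RNA was 2 in Nfya-CKO SpG, 0 in mP/lP, 4 in RS and 2 in ES, against 7.17%, 34.7%, 26.9% and 20.1% of all genes in either direction. A pseudocount of 1 gave 0 in Nfya-CKO SpG, RS and ES, against 0.577%, 5.45% and 2.87% of all genes, which follows from its size against these levels. A pseudocount of 0.01 gave 1 in mP/lP, Ccnt1, against 52.3% of all genes. The 1.5-fold limit gave 3 in mP/lP and 4 in ES, against 54.9% and 41.8%. Centring on the median of all genes gave 1 in Nfya-CKO SpG (Supt6) and 1 in ES (Supt5), against 7.21% and 20.02%. With differentiating spermatogonia as control the Nfya-CKO count was 1, against 17.4%. In scATAC-seq, 3 factors passed in Nfya-CKO SpG and 6 in mP/lP, against 40.2% and 75.1% of all genes. Scaling without mitochondrial genes gave 0 and 1 (34.0% and 63.7%), the 1.5-fold limit 0 and 2 (11.1% and 56.5%), and centring 0 in Nfya-CKO SpG (34.0%). In mP/lP centring gave 4 (66.3%), none of them among the 6, since Nelfa, Supt5, Cdk9 and Hexim1 were then higher. With differentiating spermatogonia or preleptotene spermatocytes as control the count was 9, against 76.2% and 72.7% of all genes; the cause was not tested. In mP/lP the log2 accessibility ratios of Nelfcd, Nelfe, Ccnt1 and Ccnt2 reversed to 0.20, 0.21, 0.12 and 0.18 without mitochondrial genes and to 0.28, 0.29, 0.20 and 0.26 on centring. Of the other counts 23, the 4 in mP/lP on centring included, were within 1.5 times the main one, and of the single ratios 359 moved by less than 1.5-fold and 21 by more, without a change of sign in a called value. No paired analysis was possible because each condition is 1 library. Leaving ES out of the ranges of accessibility was chosen after seeing the data. RNA depth is lowest in the unknown cells, with 7 to 36 UMIs per factor, and elsewhere is as low as 80 in ES.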
